A study of Mus musculus with 12 samples.

Results

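Chemokines are small secreted proteins that steer the migration of leukocytes, and chemokine receptors are the seven-pass membrane proteins on those cells that read them. The genes described here are the chemokine ligands and receptors measured in mouse spinal cord 9 h after a cut. They were chosen by name, as genes whose single annotated symbol begins with Ccl, Cxcl, Ccr or Cxcr followed by a digit. This gave 45 genes, 30 ligands and 15 receptors, read by 59 probe sets, of 12394 genes named by a probe set of their own on the array. Each gene is given by its brightest probe set, that is, the one with the highest mean over all 12 arrays.

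The mice were female, 10 weeks old, wild type and of the C57BL/6 strain, with no transgene or deletion. Injured mice had the cord exposed by laminectomy and 80% of it cut across. Sham mice, called naive in the sample titles, had the laminectomy alone. A piece of 2.5 cm around the site was taken 9 h later, and each homogenate gave total RNA from an aliquot and polysome-bound RNA, the mRNA loaded with ribosomes, from a sucrose gradient. The 4 groups, total RNA of injured cord, total RNA of sham cord, polysome-bound RNA of injured cord and polysome-bound RNA of sham cord, held 3 biological replicates each; whether animals were pooled within a replicate is not given in the sources used here. All astrocyte markers looked at, 9 of 9 with Gfap among them, were above background in all 4 groups.

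As background, inflammatory chemokines are made by glia, endothelium and arriving leukocytes within hours of tissue damage. Ligands with the Cxcl1 and Cxcl2 type of amino-terminal motif act on Cxcr2 and call neutrophils. Ligands such as Ccl2, Ccl7 and Ccl12 act on Ccr2 and call monocytes, whereas Ccl3, Ccl5, Ccl6 and Ccl9 act on Ccr1. Cxcl12 and Cxcl14 belong to the chemokines made constantly in many tissues, the nervous system included.

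A value is the deposited log2 level of a probe set, and levels of different probe sets cannot be set against each other. Background was taken from 27 probe sets for Bacillus subtilis transcripts, which mouse RNA should not light up, and a gene counted as above background in a group if it exceeded every one of them on 3 of 3 arrays. The brightest of these absent controls lay between 6.81 and 6.89 in total RNA of injured cord and between 7.03 and 7.04 in total RNA of sham cord. On polysomes it lay between 6.40 and 6.49 in injured cord and between 6.42 and 6.53 in sham cord. Array medians were 7.76 to 7.79, 7.75 to 7.77, 7.12 to 7.24 and 7.24 to 7.26 in the same order of groups. The signal at the 3′ end of Gapdh exceeded that at its 5′ end by 1.17 to 1.60 log2 units in injured and 0.18 to 0.27 in sham total RNA, and by 2.54 to 3.06 in injured and 0.84 to 0.90 in sham polysome-bound RNA. That 3′ excess, a sign of RNA quality, thus moved with the operation in both fractions, and its part in the results below was not tested.

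Of the 45 genes, 27 were above background in at least 1 group and 18 in none. In total RNA, 24 genes were above it in injured cord (20 ligands and 4 receptors), against 15 in sham cord (14 ligands and 1 receptor). The brightest absent control was itself dimmer in injured total RNA (6.81 to 6.89, against 7.03 to 7.04 in sham), so these are not counts of rises. Ccr10 passed in injured and not in sham total RNA, though its mean was 6.97 in injured and 7.06 in sham cord. The share of all genes above background was not counted. On polysomes 18 were above background in injured cord (15 ligands and 3 receptors), against 11 in sham cord (10 ligands and 1 receptor). The 9 genes above background in all 4 groups were the ligands Ccl4, Ccl6, Ccl9, Ccl17, Ccl25, Ccl27a, Cxcl12, Cxcl14 and Cxcl16. Those above it in 3 groups were Ccl2, Ccl24, Cxcl10, Ccr10 and Cxcr3, and those in 2 were Ccl5, Ccl7, Ccl12 and Cxcl17. A single group passed for Ccl3, Ccl11, Cxcl1, Cxcl2, Ccr1 and Cxcr2 (total RNA of injured cord), for Ccl22 and Cxcl13 (total RNA of sham cord), and for Ccr6 (polysome-bound RNA of injured cord).

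**Figure D1:**
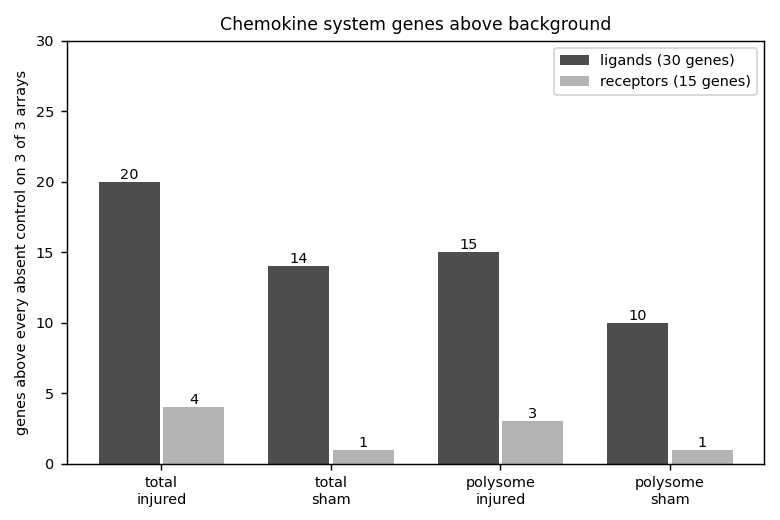
Number of chemokine ligand genes (dark bars, of 30) and receptor genes (light bars, of 15) that exceeded every absent control on 3 of 3 arrays, for the 4 groups on the x axis. Total RNA of injured cord has the tallest bars, 20 ligands and 4 receptors, against 14 and 1 in total RNA of sham cord. The absent controls were dimmer in injured than in sham total RNA, so the bars do not count rises.

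Among the 15 genes that never cleared the filter on dim probe sets were 10 receptors, Ccr1l1, Ccr2, Ccr3, Ccr4, Ccr7, Ccr8, Ccr9, Cxcr4, Cxcr5 and Cxcr6, and the ligands Ccl1, Ccl20, Cxcl5, Cxcl9 and Cxcl15. The filter kept a probe set that lay over the lowest 25% of its array's values on 3 or more arrays, and these genes were not tested. Their group means lay between 6.15 and 6.66 in injured and between 6.25 and 6.78 in sham total RNA, and between 5.78 and 6.18 in injured and between 5.78 and 6.13 in sham polysome-bound RNA. No array of these genes exceeded the absent controls, so that their levels are known only as bounds. Ccr2, the monocyte receptor for Ccl2, and Cxcr4, the receptor for Cxcl12, are among them, and a probe set at background does not show that the RNA was missing.

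The first comparison asked what injury did to the RNA content of the cord. Differences were fitted with limma for all 10371 genes that cleared the filter, with adjusted p-values after Benjamini and Hochberg over all of them and a threshold of 0.05. Of the 30 tested chemokine genes, 14 rose (46.7%) and 7 fell (23.3%) in total RNA of injured against sham cord, where 42.1% of all tested genes rose and 18.1% fell. The median change of the 30 was 0.12 on the log2 scale, and that of all tested genes was 0.12 as well. A fitted rise of at least 2-fold past the threshold was called for 8 of the 30 and for 1.27% of all tested genes. The 8 were the ligands Ccl2, Ccl3, Ccl6, Ccl9, Ccl12, Cxcl1 and Cxcl2 and the receptor Ccr1. The set thus stood near the background in how often it changed and held several of the sizeable rises. Ccl3, Ccl11, Cxcl2 and Ccr1 lay under the filter's 25% cutoff on every sham array, and Cxcl1 on all of them but total replicate 1. They passed the filter only through injured arrays, so their place among the 30 and their rise rest on the same values. After quantile normalization the split was 16 higher and 3 lower. In bulk tissue, more RNA per cell and more cells that carry it cannot be told apart.

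Cxcl2 and Cxcl1, the neutrophil-calling ligands of Cxcr2, both rose. Cxcl2 had 8.64, 9.21 and 8.66 in injured total RNA, against 6.44, 6.44 and 6.36 in sham total RNA. Every sham array lay below the absent controls and every injured one well over them, so the rise can only be bounded, at least 3.48-fold with an adjusted p of 1.23e-07. Cxcl1 had 7.80, 8.77 and 7.79 in injured total RNA, against 7.05, 6.69 and 6.83 in sham total RNA, where 1 of 3 arrays was above background. The groups did not overlap, and the fitted log2 change was 1.27 (SE 0.24, adjusted p = 0.000617), with the sham mean of 6.86 below the absent controls. The second injured replicate held the highest value of both genes.

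The ligands of Ccr1 showed the same direction. Ccl6, a chemokine found in rodents and made by myeloid cells, had 10.84, 10.56 and 9.93 in injured total RNA, against 8.24, 7.49 and 7.66 in sham total RNA. Its mean was 10.45 ± 0.46 in injured and 7.80 ± 0.39 in sham cord (SD, n = 3 each), a 6.28-fold rise (log2 change 2.65, SE 0.26, adjusted p = 3.62e-06). Ccl9, its neighbour on the chromosome, had 9.87, 9.71 and 9.27 in injured total RNA, against 7.55, 7.43 and 7.34 in sham total RNA. The groups were far apart for both genes, and Ccl9 rose 4.51-fold (log2 change 2.17, SE 0.17, adjusted p = 6.63e-07). The second probe set of each gene was also higher in injured cord, but its sham arrays were below background, so the size of that rise is not known.

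Ccl3, also known as macrophage inflammatory protein 1-alpha, had 7.47, 7.76 and 7.60 in injured total RNA, against 6.52, 6.50 and 6.65 in sham total RNA. The sham arrays were below background, and the rise was at least 1.49-fold (adjusted p = 3.11e-07). Ccl4, the beta form, was above background on every array and moved little, with 7.35, 7.39 and 7.55 in injured against 7.25, 7.09 and 7.27 in sham total RNA. Its log2 change was 0.22 (SE 0.07, adjusted p = 0.0133), and the call was lost without sham replicate 2 (0.17, adjusted p = 0.0732) or injured replicate 3 (0.16, adjusted p = 0.067). Ccl5, a ligand of Ccr1 known from T cells and glia, spanned 6.83 to 7.54 in injured and 6.78 to 6.85 in sham total RNA. These ranges overlapped, the sham arrays were below background, and the rise of at least 1.17-fold (adjusted p = 0.0153) was lost without injured replicate 1 (log2 change 0.31, adjusted p = 0.0875) or 2 (0.38, adjusted p = 0.0659).

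Ccl2, Ccl7 and Ccl12, the monocyte-calling ligands of Ccr2, rose together. Ccl2 had 8.90, 9.10 and 8.31 in injured total RNA, against 7.42, 7.29 and 7.14 in sham total RNA, all above background. Its rise was 2.80-fold (log2 change 1.48, SE 0.17, adjusted p = 1.04e-05). Ccl12 had 9.30, 8.87 and 9.26 in injured total RNA, against 7.52, 6.66 and 7.13 in sham total RNA, where 2 of 3 arrays were above background. Injured and sham arrays were more than a log2 unit apart, and the rise was 4.11-fold (log2 change 2.04, SE 0.28, adjusted p = 5.47e-05). Ccl7 had 7.46, 7.54 and 7.33 in injured total RNA, against 6.78, 6.94 and 6.84 in sham total RNA. With its sham arrays below background, Ccl7 rose at least 1.32-fold (adjusted p = 2.3e-05).

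Ccl11, the eotaxin that calls eosinophils through Ccr3, had 7.29, 7.73 and 7.09 in injured total RNA, against 6.63, 6.67 and 6.63 in sham total RNA. Its sham arrays were below background, and it rose at least 1.26-fold (adjusted p = 0.00069). Ccl24, a second eotaxin, changed by 0.07 with an adjusted p of 0.28. Cxcl10, an interferon-inducible ligand of Cxcr3, had 7.95, 7.62 and 7.66 in injured total RNA, against 7.30, 7.18 and 7.09 in sham total RNA. All arrays were above background without overlap, and the rise was 1.47-fold (log2 change 0.55, SE 0.09, adjusted p = 0.000191). The other ligands of Cxcr3, Cxcl9 and Cxcl11, were below background on every array of every group.

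Of the constantly made ligands, Cxcl14 rose, whereas no change of Cxcl12 was called in total RNA. Cxcl14 had 9.46, 9.65 and 9.56 in injured total RNA, against 9.13, 9.03 and 9.09 in sham total RNA. The groups did not overlap, and the log2 change was 0.47 (SE 0.09, adjusted p = 0.000676); a second probe set gave 0.35. Cxcl12, which holds many cell types in place through Cxcr4, had 8.58, 8.47 and 8.38 in injured total RNA, against 8.47, 8.24 and 8.53 in sham total RNA. These overlapped, with a log2 change of 0.06 (SE 0.08, adjusted p = 0.528). Ccl27a, a ligand of Ccr10 best known from skin, had 9.08, 9.02 and 8.98 in injured and 8.84, 8.89 and 8.89 in sham total RNA, with an adjusted p of 0.157.

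The 7 falls in total RNA were small, between −0.33 and −0.20 on the log2 scale, and most of these genes sat near background. Ccl22, a ligand of Ccr4, had 6.74, 6.76 and 6.72 in injured total RNA, below the absent controls, against 7.06, 7.09 and 7.05 in sham total RNA. On the deposited scale its bound was 1.16-fold higher in sham cord (adjusted p = 7.35e-05 for the fitted change). The brightest absent control shifted the same way, from 7.03 to 7.04 in sham to 6.81 to 6.89 in injured cord. The bound includes that shift and is therefore not a smallest fall of the gene itself. Cxcl13, the B-cell chemokine that acts on Cxcr5, had 6.87, 6.99 and 6.84 in injured and 7.28, 7.18 and 7.16 in sham total RNA, a log2 change of −0.31 (SE 0.06, adjusted p = 0.000698). Cxcl16, a membrane-bound ligand of Cxcr6, was above background throughout, with 7.67, 7.64 and 7.56 in injured and 7.85, 7.81 and 7.84 in sham total RNA (−0.21, SE 0.06, adjusted p = 0.00518); its second probe set gave −0.13 (adjusted p = 0.143). Ccl28, a mucosal ligand of Ccr10, had 6.82, 6.86 and 6.85 in injured and 7.11, 7.06 and 7.02 in sham total RNA (adjusted p = 0.0015). Cxcl17 lay between 6.93 and 6.99 in injured and between 7.09 and 7.23 in sham total RNA (−0.22, adjusted p = 0.00805).

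The same direction was seen in the absent controls and in dim probe sets. The median change of the 27 absent controls in total RNA was −0.06, with a range of −0.21 to 0.06, and that of the 1038 dimmest tested genes was −0.15. Among the 15 untested chemokine genes, 11 were lower in injured than in sham total RNA without overlap, against 21.7% of all tested genes. The tested genes are brighter, since they cleared the filter that these 15 did not. The share among other genes that failed the filter was not counted, so the 11 are not an excess. After quantile normalization 4 of the 7 falls, those of Ccl28, Cxcl17, Ccr6 and Cxcr3, were no longer called, while Ccl22 (−0.18) and Cxcl13 (−0.18) were still called with smaller falls.

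Of the receptors, only 5 could be tested, and Ccr1 had the largest fitted change among them. Ccr1, which reads Ccl3, Ccl5, Ccl6 and Ccl9 on neutrophils and monocytes, had 8.23, 8.36 and 7.75 in injured total RNA, against 6.67, 6.43 and 6.40 in sham total RNA. All sham arrays were below background, and the rise was at least 2.11-fold (adjusted p = 7.71e-07). Ccr1 had passed the filter only through injured arrays, so its place among the 5 and its rise rest on the same values. Its second probe set was below the absent controls on every array and gives no second reading. Cxcr2, the neutrophil receptor for Cxcl1 and Cxcl2, spanned 6.87 to 7.29 in injured and 7.0 to 7.04 in sham total RNA, overlapped, and had an adjusted p of 0.413. It was called higher without injured replicate 3 (0.19, adjusted p = 0.0103) and after quantile normalization (0.19, adjusted p = 0.0488). Cxcr3, found on T and NK cells, spanned 6.89 to 7.02 in injured and 7.13 to 7.20 in sham total RNA (−0.20, adjusted p = 0.00918). Ccr6, found on lymphocytes, had 6.67, 6.65 and 6.66 in injured and 6.76, 6.97 and 6.83 in sham total RNA, with every array below background (adjusted p = 0.00432). Ccr10, a receptor of skin-homing cells, had an adjusted p of 0.181.

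**Figure D2:**
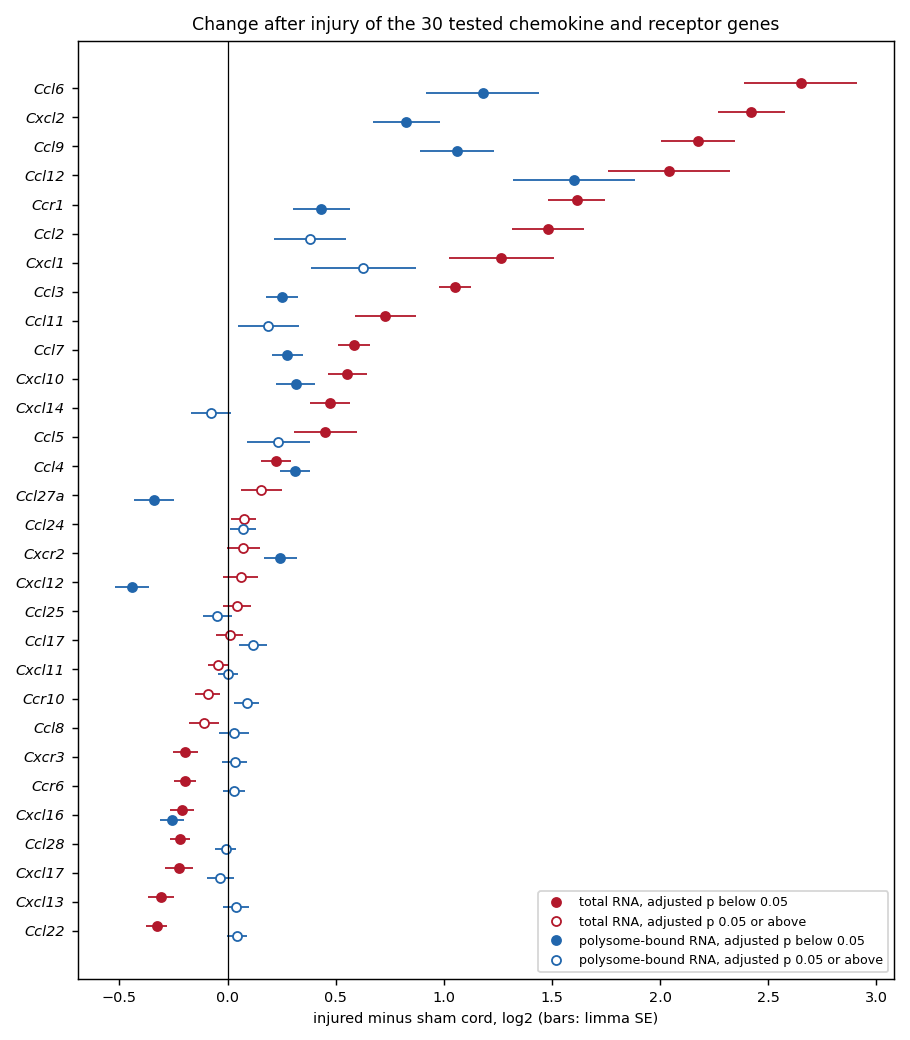
Change of the 30 tested chemokine and receptor genes, injured minus sham cord on the log2 scale (x axis), in total RNA (red) and polysome-bound RNA (blue), with limma standard errors from 3 arrays a group; filled points have an adjusted p below 0.05. Fitted values are drawn also for genes below background, where they are no bound. Ccl6 tops the plot with 2.65 in total RNA and 1.18 on polysomes, and Ccl22 is lowest in total RNA at −0.33.

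Several members lie side by side in the genome, and neighbours did not all move alike. Of the 45 genes, 14 are on chromosome 11, 9 on chromosome 5 and 9 on chromosome 9, in the gene order of RefSeq on assembly GRCm38.p6. Ccl2, Ccl7, Ccl11, Ccl12, Ccl8 and Ccl1 follow one another among the members on chromosome 11, and the first 4 of them rose, whereas Ccl8 (adjusted p = 0.193) and the untested Ccl1 were below background in total RNA. Ccl5, Ccl9, Ccl6, Ccl3 and Ccl4 come next, and all 5 rose, where 42.1% of all tested genes rose. The calls of Ccl4 and Ccl5 were lost when single arrays were left out. Of the rising genes named in this paragraph, Ccl3, Ccl11, Cxcl1, Cxcl2 and Ccr1 had passed the filter only through injured arrays. On chromosome 5, Cxcl1 and Cxcl2 rose beside Cxcl5 and Cxcl15, which were at background, and Cxcl10 rose between Cxcl9 and Cxcl11, also at background. Ccr1 rose within the order Ccr9, Cxcr6, Ccr1, Ccr1l1, Ccr3 and Ccr2 on chromosome 9, whose other members stayed under the absent controls.

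The upstream sequences of the genes that rose were read from RefSeq, because inflammatory chemokine genes are textbook targets of NF-κB. The promoter table of assembly GRCm38.p6 held 32 of the 45 genes, and 250 bases before the annotated start were searched on both strands. The kappaB-like motif (GGG, any 3 bases, then TTCC) was found in 8 of 32 (25%), against 5.31% of the 27025 genes in the table. The AP-1-like motif TGANTCA was found in 5 (15.6%, against 7.82% of all genes) and the STAT-like motif TTCNNNGAA in 4 (12.5%, against 8.13%). Of the 9 matched genes that rose in total RNA, 4 held the first, 2 the second and 1 the third. A match says only that these letters are there.

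Shown are the windows of 2 neighbouring pairs that rose, Cxcl1 with Cxcl2 and Ccl9 with Ccl6, and of Cxcl10, which held the most distinct matches among the genes that rose. On GRCm38.p6 they are chr5:90890995-90891244 (Cxcl1, plus strand), chr5:90903649-90903898 (Cxcl2, plus strand), chr5:92348890-92349139 (Cxcl10, minus strand), chr11:83578637-83578886 (Ccl9, minus strand) and chr11:83593088-83593337 (Ccl6, minus strand). Each is printed in the direction of its gene and ends at the base before the annotated start. Capitals mark matches to the kappaB-like or AP-1-like motif on either strand, which in Cxcl1 and Cxcl2 overlap on opposite strands within 1 capital run.
Cxcl1: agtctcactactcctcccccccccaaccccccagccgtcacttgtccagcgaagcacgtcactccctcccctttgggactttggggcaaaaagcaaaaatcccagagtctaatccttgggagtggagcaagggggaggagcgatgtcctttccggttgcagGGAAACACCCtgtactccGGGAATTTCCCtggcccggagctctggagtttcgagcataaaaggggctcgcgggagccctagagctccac
Cxcl2: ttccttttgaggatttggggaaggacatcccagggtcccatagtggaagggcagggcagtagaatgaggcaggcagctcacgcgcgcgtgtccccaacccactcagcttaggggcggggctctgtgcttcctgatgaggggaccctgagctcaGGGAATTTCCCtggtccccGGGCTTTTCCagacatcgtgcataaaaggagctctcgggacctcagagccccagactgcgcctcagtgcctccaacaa
Cxcl10: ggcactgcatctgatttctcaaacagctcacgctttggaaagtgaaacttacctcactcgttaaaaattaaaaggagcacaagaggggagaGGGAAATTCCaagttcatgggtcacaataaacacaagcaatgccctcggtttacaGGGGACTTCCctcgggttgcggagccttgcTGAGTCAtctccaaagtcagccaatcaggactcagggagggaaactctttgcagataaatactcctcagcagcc
Ccl9: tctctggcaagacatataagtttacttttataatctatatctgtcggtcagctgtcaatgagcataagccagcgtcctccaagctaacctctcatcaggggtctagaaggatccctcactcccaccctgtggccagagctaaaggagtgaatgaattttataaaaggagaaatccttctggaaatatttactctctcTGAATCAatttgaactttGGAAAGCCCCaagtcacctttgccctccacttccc
Ccl6: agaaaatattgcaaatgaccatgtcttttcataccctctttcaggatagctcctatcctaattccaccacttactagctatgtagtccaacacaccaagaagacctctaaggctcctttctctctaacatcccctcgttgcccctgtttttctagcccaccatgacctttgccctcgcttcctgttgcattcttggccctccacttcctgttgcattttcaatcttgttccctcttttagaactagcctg

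In Cxcl1 the kappaB-like matches span bases −89 to −80 and −71 to −61 before the start, and in Cxcl2 bases −97 to −87 and −78 to −69. The windows of Cxcl1 and Cxcl2 shared 145 of 208 aligned bases (69.7%). Cxcl10 has kappaB-like matches at −159 to −150 and −104 to −95 and an AP-1-like match at −74 to −68. Ccl9 has an AP-1-like match at −53 to −47 and a kappaB-like match at −35 to −26, whereas Ccl6, which shared 135 of 214 aligned bases with it (63.1%), has no match to any of the 3 motifs. Other kappaB-like matches were in Ccl1, Ccl20 and Ccr3, which were below background and not tested, so whether they rose is not known. A further match was in Ccr6, which was called lower in total RNA with every total RNA array below background.

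**Figure D3:**
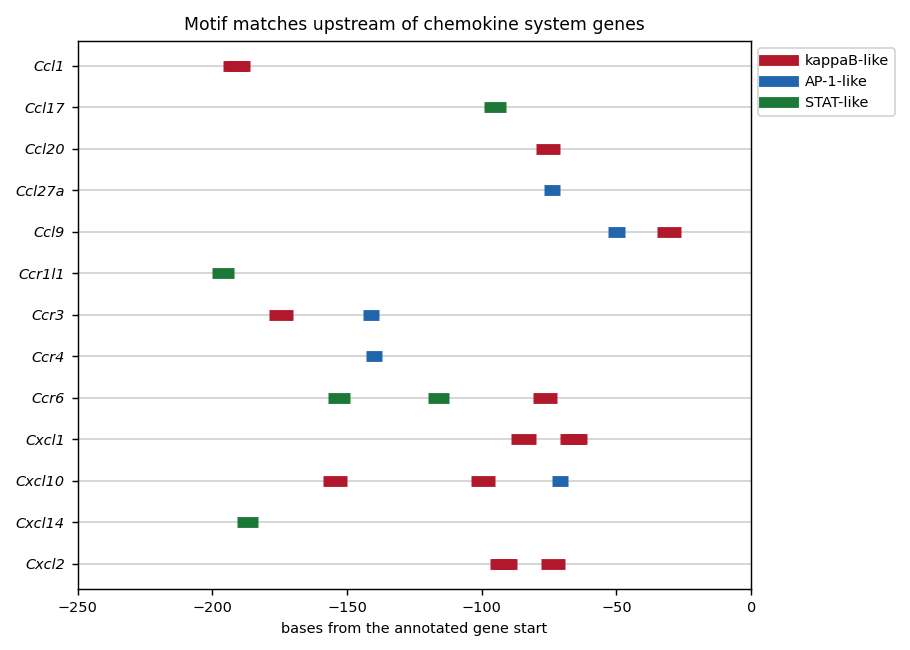
Position of motif matches in the 250 bases upstream of the annotated start (x axis, bases) for the 13 genes with any match, coloured by motif. Cxcl1, Cxcl2 and Cxcl10 each carry 2 stretches of kappaB-like matches, and Ccl9 carries 1 beside an AP-1-like match.

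The second comparison asked the same of RNA on polysomes, the pool that was being translated. There 10 of the 30 tested genes rose (33.3%) and 3 fell (10.0%), where 13.7% of all tested genes rose and 25.3% fell. Ccl3, Cxcl2 and Ccr1, among the 10, had passed the filter only through injured arrays. The median change of the 30 was 0.10, against −0.04 for all tested genes. A called rise of at least 2-fold was seen for 3 of the 30, Ccl6, Ccl9 and Ccl12, and for 0.405% of all tested genes. The genes called higher in both fractions were Ccl3, Ccl4, Ccl6, Ccl7, Ccl9, Ccl12, Cxcl2, Cxcl10 and Ccr1, 9 of 14 called in total RNA and 9 of 10 called on polysomes. How many of all tested genes were called higher in both fractions was not counted, so this overlap is not particular to chemokine genes.

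Ccl12 had 7.49, 8.04 and 8.68 in injured polysome-bound RNA, against 7.02, 6.22 and 6.17 in sham polysome-bound RNA, where 1 of 3 arrays was above background. Its fitted log2 change on polysomes was 1.60 (SE 0.28, adjusted p = 0.000559), and part of it lies below background. Ccl6 had 7.77, 8.88 and 8.54 in injured and 7.33, 7.16 and 7.17 in sham polysome-bound RNA, all above background and without overlap. It rose 2.26-fold (log2 change 1.18, SE 0.26, adjusted p = 0.00276). Ccl9 had 7.54, 8.38 and 8.04 in injured and 6.98, 6.88 and 6.91 in sham polysome-bound RNA. It rose 2.09-fold (log2 change 1.06, SE 0.17, adjusted p = 0.000295). The second probe sets were not called there (adjusted p = 0.104 for Ccl6 and 0.125 for Ccl9), but they were below background on all sham polysome arrays and above it on only 2 (Ccl6) and 1 (Ccl9) of 3 injured ones, so this shows little about either gene.

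Cxcl2 had 6.35, 7.09 and 6.72 in injured polysome-bound RNA, 2 of 3 above background, against 5.89, 5.95 and 5.84 in sham polysome-bound RNA. The sham arrays were all under the absent controls, and the rise was at least 1.20-fold (adjusted p = 0.000908). Cxcl1 had 6.19, 7.15 and 6.45 in injured and 6.06, 5.94 and 5.90 in sham polysome-bound RNA. Its arrays did not overlap, yet it missed the threshold (adjusted p = 0.0531), and it was called without injured replicate 1 (0.83, adjusted p = 0.0183) and lay at 0.35 (adjusted p = 0.233) without injured replicate 2. Cxcl1 was also called after quantile normalization (0.67, adjusted p = 0.0357) and after centring (0.71, adjusted p = 0.022). Ccl2 also missed it, with 6.64, 7.11 and 6.65 in injured and 6.52, 6.31 and 6.42 in sham polysome-bound RNA (0.38, SE 0.17, adjusted p = 0.0831). Quantile normalization brought Ccl2 past the threshold (0.42, adjusted p = 0.043), and so did centring of arrays on their median (0.46, adjusted p = 0.0271), while without injured polysome replicate 2 it lay at 0.23 (adjusted p = 0.304).

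Ccl4 had 7.13, 7.13 and 7.33 in injured and 6.89, 6.86 and 6.90 in sham polysome-bound RNA, all above background and without overlap. It rose by 0.31 (SE 0.07, adjusted p = 0.00299) on polysomes, against 0.22 in total RNA, and the difference between these was 0.09 (adjusted p = 0.474). Ccl7 had 6.58, 6.84 and 6.63 in injured and 6.45, 6.42 and 6.35 in sham polysome-bound RNA (0.28, SE 0.07, adjusted p = 0.00761). Cxcl10 had 6.75, 6.82 and 6.80 in injured and 6.66, 6.37 and 6.39 in sham polysome-bound RNA (0.31, SE 0.09, adjusted p = 0.0131). For both, 1 of 3 sham arrays was above background, and the call of Cxcl10 was lost without sham polysome replicate 2 (0.26, adjusted p = 0.0636) or 3 (0.27, adjusted p = 0.057).

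Ccr1, Ccl3 and Cxcr2 were called at levels around background. Ccr1 had 6.22, 6.57 and 6.44 in injured polysome-bound RNA, 2 of 3 above the absent controls, against 6.01, 5.88 and 6.04 in sham polysome-bound RNA (adjusted p = 0.0171), and the call was lost without replicate 2 of either group (adjusted p = 0.0664 without the injured and 0.0674 without the sham one). Ccl3 had 6.10, 6.05 and 6.29 in injured and 5.91, 5.92 and 5.86 in sham polysome-bound RNA, all below the absent controls (adjusted p = 0.0158; 0.0712 without injured replicate 3 and 0.0541 without sham replicate 3). Cxcr2 was at 6.35 on each injured and between 6.08 and 6.13 on the sham polysome arrays, likewise below them (adjusted p = 0.0207; 0.0663 without sham replicate 1). No fold is given for these, since only bounds exist on both sides or the bound falls under 1.

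Cxcl12, Ccl27a and Cxcl16 fell on polysomes. Cxcl12 had 7.28, 7.36 and 7.41 in injured and 7.87, 7.68 and 7.83 in sham polysome-bound RNA (−0.44, SE 0.08, adjusted p = 0.000643), but its second probe set moved the other way, by 0.17 (adjusted p = 0.246). Ccl27a had 7.0, 7.29 and 7.49 in injured and 7.56, 7.69 and 7.55 in sham polysome-bound RNA (−0.34, SE 0.09, adjusted p = 0.00985). Without injured polysome replicate 1, its lowest array, the change was −0.21 (adjusted p = 0.0259). The only probe set of Ccl27a is of a type (_x_at) that an alternative fit left out, so its calls have no second reading there. Cxcl16 had 6.78, 6.90 and 6.71 in injured and 7.11, 7.04 and 7.01 in sham polysome-bound RNA (−0.26, SE 0.06, adjusted p = 0.00227), and its second probe set gave −0.18 (adjusted p = 0.0729). Cxcl14, with 7.41, 7.60 and 7.86 in injured and 7.73, 7.65 and 7.72 in sham polysome-bound RNA, overlapped between groups (adjusted p = 0.551).

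**Figure D4:**
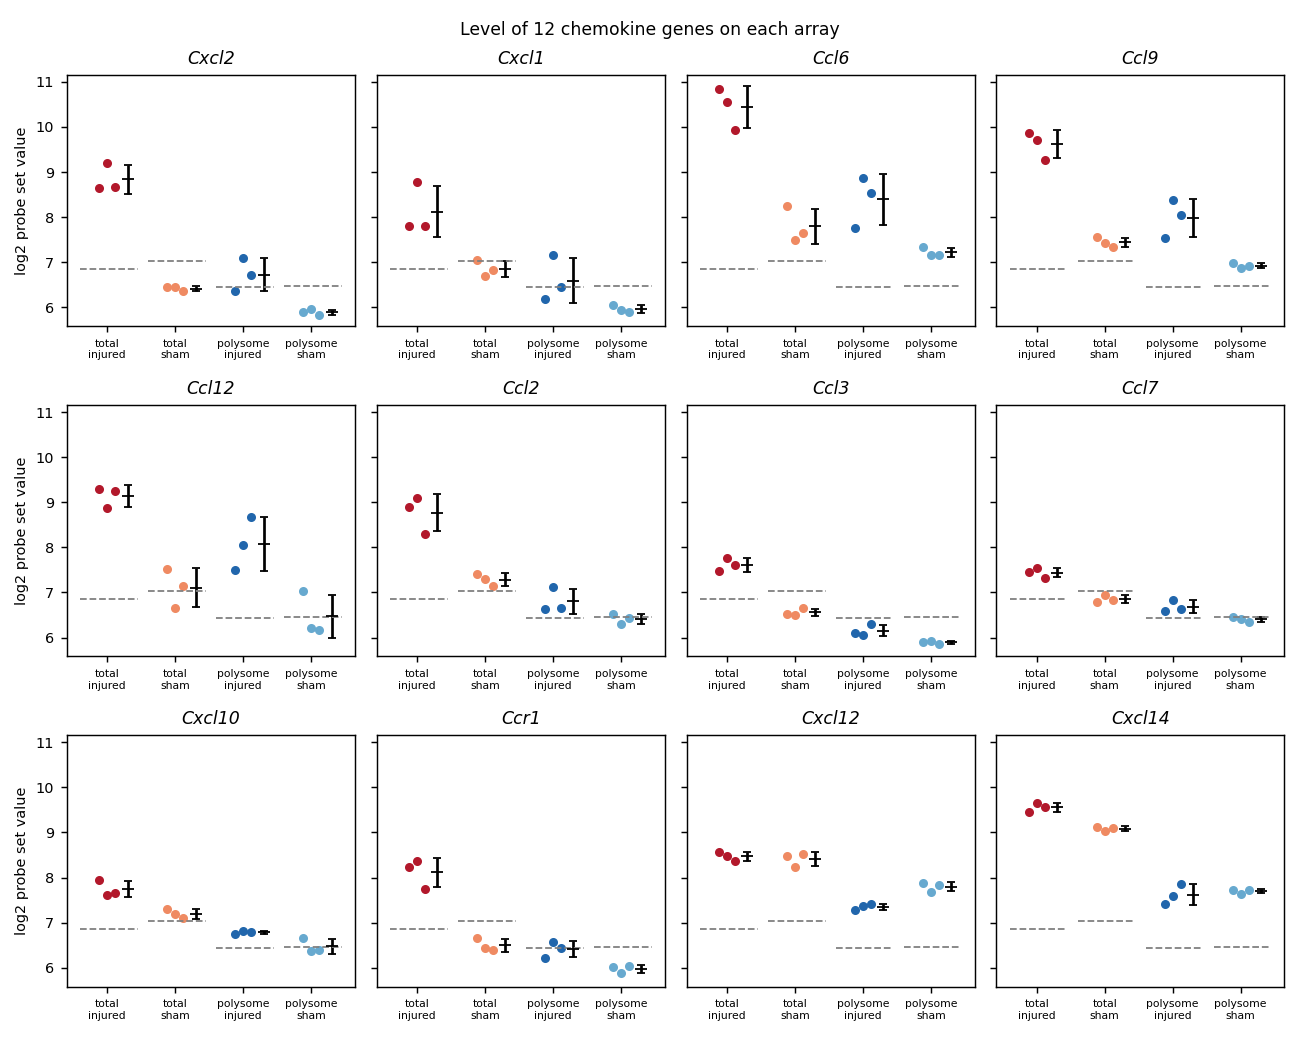
Level of 12 chemokine genes (log2 probe set value, y axis) on every array of the 4 groups (x axis); points are arrays, bars the mean and SD of 3, and the dashed line is the group's mean of the brightest absent control. Ccl6 and Ccl9 stand above the line in every group, and Cxcl2 and Ccr1 clear it on all arrays only in total RNA of injured cord, where Ccl6 reached 9.93 to 10.84.

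Among the injured polysome arrays, replicate 1 gave the lowest value of Ccl6, Ccl9, Ccl12, Cxcl1, Cxcl2 and Ccr1. It had the lowest array weight that limma estimated, 0.21, against 0.47 and 0.89 for injured polysome replicates 2 and 3 and 0.92 to 2.08 for the other arrays. Without it the changes on polysomes were 1.49 for Ccl6, 1.29 for Ccl9, 1.89 for Ccl12 and 1.01 for Cxcl2, all still called. Replicate 2 held the highest value of Ccl2, Ccl6, Ccl7, Ccl9, Cxcl1, Cxcl2 and Ccr1.

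The third comparison asked whether injury changed a gene differently on polysomes than in total RNA, as the change on polysomes minus the change in total RNA. Of the 30 tested genes 5 were higher and 11 lower by this difference, where 11.0% of all tested genes were higher and 39.3% lower. The median was −0.15, against −0.16 for all tested genes. The split was 2 higher and 8 lower after quantile normalization, and 7 higher and 9 lower after centring. The lower ones were Ccl2, Ccl3, Ccl6, Ccl7, Ccl9, Ccl11, Ccl27a, Cxcl2, Cxcl12, Cxcl14 and Ccr1, and the higher ones were Ccl22, Ccl28, Cxcl13, Ccr6 and Cxcr3. Among the lower ones, Ccl3, Ccl11, Cxcl2 and Ccr1 had passed the filter only through injured arrays, chiefly those of total RNA. Their place among the 30 and their negative difference thus rest on the same values.

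Only 5 of these 16 genes were above background in all 4 groups, Ccl6, Ccl9, Ccl27a, Cxcl12 and Cxcl14. Ccl6 rose less on polysomes than in total RNA, with a difference of −1.47 (SE 0.37, adjusted p = 0.00526), and so did Ccl9, with one of −1.11 (SE 0.24, adjusted p = 0.00219). Their second probe sets had sham arrays of both fractions below background and give no measured difference. Ccl2, above background in all groups but sham polysomes, gave −1.10 (SE 0.23, adjusted p = 0.00191). Ccl12 rose by 1.60 on polysomes and by 2.04 in total RNA, and their difference of −0.44 (SE 0.40, adjusted p = 0.369) was about as large as its error.

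For Cxcl2 (−1.59, SE 0.22, adjusted p = 0.000116), Ccr1 (−1.18, SE 0.19, adjusted p = 0.000262) and Ccl3 (−0.80, SE 0.11, adjusted p = 8.98e-05), sham arrays of both fractions were below background. A rise that starts under the absent controls is seen only in part, so these differences compare 2 bounded changes. For Cxcl14 (−0.55, SE 0.13, adjusted p = 0.00361), Cxcl12 (−0.50, SE 0.11, adjusted p = 0.00261) and Ccl27a (−0.50, SE 0.13, adjusted p = 0.00689) the difference was no longer called after quantile normalization, at −0.26, −0.26 and −0.20. The second probe set of Cxcl12 gave 0.35 (adjusted p = 0.0747), and that of Cxcl14 gave −0.24 (adjusted p = 0.188). Ccl11 (−0.54, adjusted p = 0.0368) and Ccl7 (−0.31, adjusted p = 0.0219) lost the call when single arrays were left out, and the sham arrays of Ccl11 were below background in both fractions, so that it too compares 2 bounded changes. The higher ones, from 0.21 for Ccl28 to 0.37 for Ccl22, were genes that fell in total RNA near background and lay within 0.05 of no change on polysomes.

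Within each operation, the chemokine genes gave lower values on polysome arrays than on total RNA arrays. In injured cord none of 30 tested genes was higher and 30 were lower on polysomes (13.6% and 72.7% of all tested genes), with a median of −0.76, against −0.41 for all tested genes. In sham cord none was higher and 28 were lower (21.0% and 59.1%), with a median of −0.64, against −0.30. Direction depended on the scaling, since quantile normalization gave 6 higher and 18 lower in injured and 5 higher and 8 lower in sham cord, and centring gave 7 and 13 in injured and 2 and 11 in sham cord. The absent controls themselves were lower on polysome arrays, by a median of −0.34 in injured and −0.38 in sham cord. Cxcl14 (−1.93 in injured and −1.38 in sham cord, SE 0.09 each) and Ccl27a (−1.77 and −1.27, SE 0.09 each) remained called lower on polysomes under both scalings. So did Cxcl16 (−0.82 and −0.78, SE 0.06 each), whose second probe set gave −0.79 in injured and −0.74 in sham cord. In injured cord further genes, Ccl2 and Cxcl2 among them, also kept the call under both. The second probe set of Cxcl14 gave smaller differences in the deposited values, −0.99 in injured and −0.75 in sham cord. Ccl27a has no second probe set.

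Genes that work with these members were counted from lists. Of 17 other chemokine system genes listed, 10 were tested, and in total RNA 4 rose and 3 fell (0 and 2 on polysomes). Cx3cr1, the microglial receptor of the neuronal ligand Cx3cl1, fell by 0.91 (SE 0.09, adjusted p = 5.23e-06), whereas Ackr3, a scavenger of Cxcl12, rose by 1.06 (SE 0.15). Ackr1, a decoy receptor of red cells and venules, rose by 0.40 (SE 0.06) in total RNA and fell by 0.36 on polysomes. Of 33 genes of receptor signalling, 26 were tested, and 10 rose and 3 fell in total RNA (4 and 6 on polysomes). Beside both lists, 42.1% of all tested genes rose and 18.1% fell in total RNA (13.7% and 25.3% on polysomes). The G protein subunits Gnb1 (0.55, SE 0.06) and Gnai3 (0.69, SE 0.09) rose and the phospholipase Plcb2 (−0.34, SE 0.05) fell in total RNA.

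The 31 listed inducers of chemokine genes were cytokines, their receptors and the factors downstream. Of the 23 inducers tested, 14 rose and 2 fell in total RNA, where 42.1% of all tested genes rose and 18.1% fell. On polysomes 11 of the inducers rose and 0 fell, where 13.7% of all tested genes rose and 25.3% fell. The median change of the inducers was 0.49 in total RNA and 0.22 on polysomes, against 0.12 and −0.04 for all tested genes. Cebpd, a transcription factor of the acute phase, rose by 2.60 (SE 0.15), its relative Cebpb by 1.57 (SE 0.14), and the TNF receptor Tnfrsf1a by 1.22 (SE 0.08). The medians of the receptor signalling genes, 0.11 and −0.08, were near those of all tested genes.

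Markers of leukocytes that carry these receptors were read on the same arrays as log2 of the summed values of a list. Neutrophil markers summed to 12.52 to 13.24 in injured and 11.55 to 11.98 in sham total RNA, and to 11.10 to 11.90 in injured and 10.78 to 11.02 in sham polysome-bound RNA, so that the sums were higher in injured cord without overlap in both fractions, as were Cxcl2 and Ccr1. Bright genes dominate such a sum. Of the 12 tested, 7 rose and 4 fell in total RNA, where 42.1% of all tested genes rose and 18.1% fell. Among these markers were Lcn2 (3.01, SE 0.33), S100a9 (1.59, SE 0.27) and Camp (−0.57, SE 0.08). On polysomes 2 rose, S100a8 (0.97, SE 0.25) and S100a9 (0.95, SE 0.27), and 2 fell, Camp (−0.32) and Ngp (−0.37), with a median of −0.02, against −0.04 for all tested genes. There 13.7% of all tested genes rose and 25.3% fell. Lcn2 is also made by astrocytes, and Mpo, a granule enzyme of neutrophils, was below the absent controls on all total RNA arrays.

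Monocyte and macrophage markers summed to 12.24 to 12.57 in injured and 11.70 to 11.87 in sham total RNA, and to 10.79 to 11.24 in injured and 11.11 to 11.24 in sham polysome-bound RNA. In total RNA 10 of 15 tested rose and 0 fell, where 42.1% of all tested genes rose and 18.1% fell. Fcgr3 at 1.50 (SE 0.13) and Chil3 at 1.80 (SE 0.16) were among the 10. Msr1 averaged 7.92 in injured and 6.79 in sham cord, where it was below background (adjusted p = 3.87e-07). The sums of the monocyte and macrophage markers thus were higher in injured cord with Ccl2, Ccl7 and Ccl12 in total RNA, and overlapped between injured and sham cord on polysomes. Gene by gene, 5 of the 15 rose and 3 fell on polysomes, where 13.7% of all tested genes rose and 25.3% fell. The median change on polysomes was 0.20, against −0.04 for all tested genes. Microglia markers overlapped in total RNA, at 12.67 to 12.76 in injured and 12.60 to 12.84 in sham cord, and on polysomes, at 12.23 to 12.46 in injured and 12.40 to 12.65 in sham cord, and 2 of 14 tested rose and 9 fell in total RNA. On polysomes 0 of the 14 rose and 9 fell, with a median change of −0.28. The median change in total RNA was 0.22 for the neutrophil, 0.52 for the monocyte and macrophage and −0.30 for the microglia markers, against 0.12 for all tested genes. T and NK cell markers, 2 of 6 tested above background, summed to 9.47 to 9.52 in injured and 9.67 to 9.71 in sham total RNA, and B cell markers, at most 1 of 3 tested above background, to 8.37 to 8.43 in injured and 8.53 to 8.55 in sham total RNA.

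Of markers of resident cells that make chemokines, 6 of 9 tested astrocyte genes rose and 0 fell in total RNA (4 and 3 on polysomes). Endothelial markers split into 3 that rose and 3 that fell of 11 tested (0 and 3 on polysomes), and pericyte and meningeal markers into 5 and 2 of 10 (0 and 3 on polysomes). Of 7 tested blood and platelet markers, 3 rose and 1 fell in total RNA (0 and 0 on polysomes). Of all tested genes, 42.1% rose and 18.1% fell in total RNA, and 13.7% and 25.3% on polysomes. The median change in total RNA was 0.24 for the astrocyte, 0.11 for the endothelial, 0.11 for the pericyte and meningeal and −0.01 for the blood and platelet markers, against 0.12 for all tested genes. On polysomes these medians were −0.03, −0.05, −0.12 and 0.07 in the same order, against −0.04. Among the blood and platelet markers Pf4 and Ppbp, platelet chemokines whose names fall outside the rule, rose, Pf4 by 1.14 (SE 0.26), and Ppbp with means of 7.37 in injured and 6.67 in sham cord, where it was below background (adjusted p = 0.000204). The part of arriving cells or blood in the chemokine changes was not tested.

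**Figure D5:**
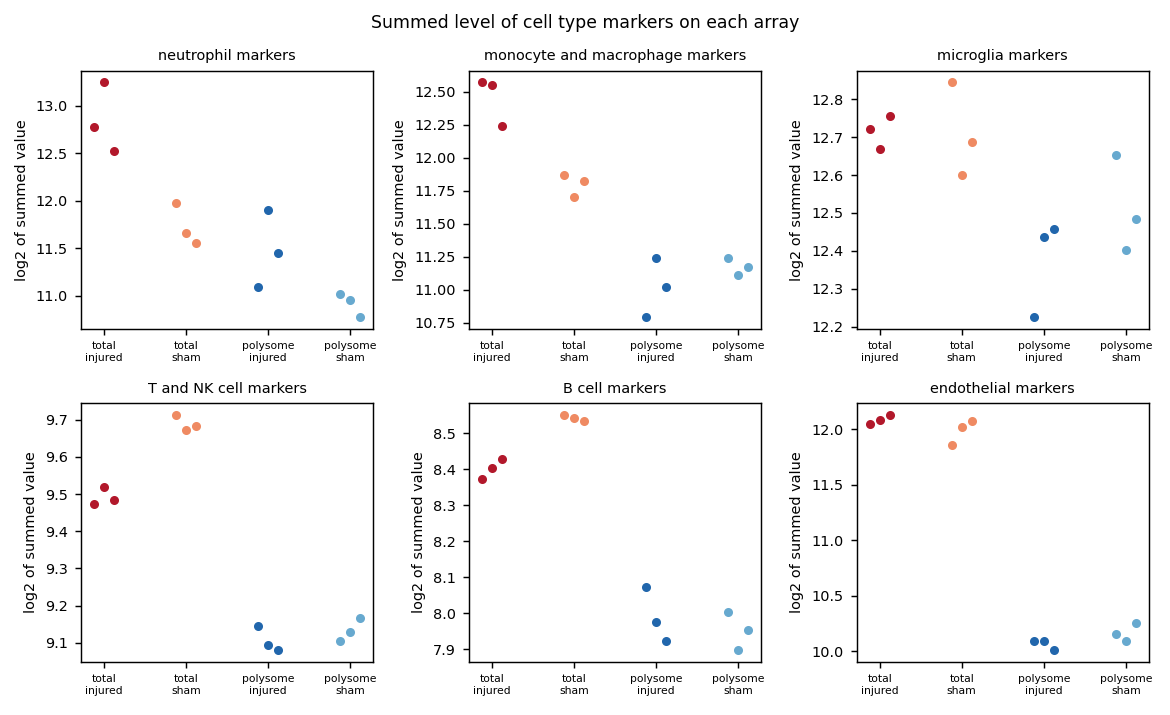
Summed level of 6 marker lists (log2, y axis, own scale in each panel) on every array of the 4 groups (x axis). The summed level of neutrophil markers is higher in injured than in sham cord in both fractions without overlap (12.52 to 13.24 against 11.55 to 11.98 in total RNA), though on polysomes 2 of the 12 tested genes rose and 2 fell; that of monocyte and macrophage markers is higher in total RNA.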

How the data were processed

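Total and polysome-bound RNA of injured and sham cord was hybridised to 12 Affymetrix arrays, 3 per group; per the labels' protocols, biotin-labelled cRNA was made in 1 cycle from 5 µg of total or 3 µg of polysome-bound RNA. The deposited values are log2 levels, 1 per probe set and array, a scale read from their range of 5.26 to 14.648; the authors' background correction, normalization and summary are not given in the sources used here, and the values were used as deposited. Precision is limited by the number of arrays.

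Genes were named from the array annotation (20393 of 22690 probe sets name 1 gene, 691 several and 1606 none); 4 chemokine probe sets that name several genes, which include Ccl21, were not used. Probe sets that exceeded the lowest 25% of an array's values on 3 or more arrays were kept, and of these the brightest per gene. limma 3.58.1 (statmod 1.5.0, R 4.3.3) fitted 4 group means with trended empirical Bayes over 10371 genes. All p-values are two-sided. A change against a group wholly below the absent controls is given as a bound, the bright group's mean over the dim group's mean of the brightest absent control or the own value, whichever was higher on each array. Genes above background in a group are named; array values are given for the 20 with the lowest adjusted p in the injury comparisons and their difference. The members and lists were chosen with earlier results of these data known. The fit was tested on simulated data.

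Equal replicate numbers of total and polysome-bound RNA deviated together in sham cord (r = 0.19, 0.17 and 0.14 over genes) and not in injured cord (−0.09, 0.06 and 0.04); those of injured and sham cord did not (−0.24 to 0.07). The number was therefore also fitted as a random block within each operation and as a fixed term, both over all 4 groups. The pairing seen in sham cord was not fitted on its own. Other alternatives were filters, probe set choice, quantile normalization, centring, moderation, array weights, compared groups only and leaving out each array.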

Additional observations from a re-analysis of the deposited data

Results flagged for a closer look

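For 16 genes the change after injury differed between the fractions by a test of the difference itself (limma, polysome-bound minus total RNA, adjusted p below 0.05). The difference was negative for Cxcl2 (−1.59), Ccl6 (−1.47), Ccr1 (−1.18), Ccl9 (−1.11), Ccl2 (−1.10), Ccl3 (−0.80), Cxcl14 (−0.55), Ccl11 (−0.54), Cxcl12 (−0.50), Ccl27a (−0.50) and Ccl7 (−0.31). It was positive for Ccl22 (0.37), Cxcl13 (0.35), Ccr6 (0.23), Cxcr3 (0.23) and Ccl28 (0.21). Ccl3, Ccl11, Cxcl2 and Ccr1 had passed the filter only through injured arrays, so their negative difference and their place in the test rest on the same values. Of all tested genes 50.2% were called in this comparison. Groups of 3 arrays are too small for a test of single outlying arrays.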

How the results depend on the processing

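Counts of called genes moved mainly with the filter and the scaling. In total RNA the 14 rises became 7 with a filter at the array median, which left only 10 of the 45 genes to test, and the 7 falls became 15 with no filter, 1 with the median filter and 3 with quantile normalization. On polysomes the 10 rises became 4 with the median filter. For the difference between fractions, the 5 higher became 12 with no filter, 0 with the median filter and 2 with quantile normalization, and the 11 lower became 7 with the median filter. Between fractions in injured cord, 0 higher became 6 (quantile) and 7 (centred), and 30 lower became 10 (median filter), 18 (quantile) and 13 (centred). In sham cord, 0 higher became 5 (quantile) and 2 (centred), and 28 lower became 45 (no filter), 8 (median filter), 8 (quantile) and 11 (centred). Leaving out each array in turn gave 13 to 15 rises and 7 falls in total RNA, 8 to 12 rises and 3 falls on polysomes, 4 to 6 higher and 9 to 12 lower for the difference, 0 higher with 29 to 30 lower between fractions in injured cord, and 0 with 27 to 30 in sham cord. With the replicate number as a fixed term the counts were 14 and 7, 12 and 3, 5 and 11, 0 and 30, and 0 and 29. As a random block within each operation (correlation 0.0019, shared by injured and sham cord) they did not move. Between the sham fractions, Ccl12 was called with the fixed term (adjusted p = 0.0432) and no other call changed there. That term was fitted to all groups at once and also ties injured to sham replicates, which did not deviate together. Counts of genes above background in injured total, sham total, injured polysome and sham polysome arrays were 24, 15, 18 and 11. They were 44, 44, 41 and 39 against the 3 trpn controls alone and 15, 5, 8 and 6 with a margin of 0.5; quantile normalization keeps ranks within an array and so could not move them. Signs turned between fractions in sham cord for Cxcl2 (0.0085), Ccl9 (0.058), Ccr1 (0.0183), Ccl7 (0.153, centred 0.0629), Ccl4 (0.28, centred 0.19), Ccr6 (0.237, centred 0.146) and Ccl5 (0.157, centred 0.0713) after quantile normalization. In injured cord they turned for Ccl22 (0.215, centred 0.323), Ccl4 (0.351, centred 0.369), Ccr6 (0.355, centred 0.464) and Cxcr3 (0.0948, centred 0.173), and only after centring for Cxcl13 (0.0358) and Ccl28 (0.0102). The second probe set of Cxcl12, a test chosen after seeing the data as for the other second probe sets, turned the change on polysomes (0.17) and the difference (0.349). Of the values recomputed for single genes, 2669 kept direction and side of the threshold, 73 lost a call, 41 gained one and 23 turned. The cause was not tested.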
